A study of Mus musculus with 12 samples.

Results

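The genes described here are 7 genes of neutrophil granules and neutrophil maturation, S100a9, Lcn2, Ltf, Cd177, Csf3r, Hdc and Ceacam1, followed over mouse cDNA arrays that compare autoimmune-prone and related strains with B6. They were chosen as the probes that carry exactly 1 of these symbols, which gave 10 probes of 20736 and 7 genes of 8708. Ltf had 3 probes, Hdc had 2 and the other genes had 1 each. All 10 probes had a value on all 12 arrays, and none lay at the cap of the deposited values.

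The study hybridised RNA of spleen T cells, and in 1 group of kidney cells, on cDNA arrays with 2 colour channels against RNA of the same tissue from B6 mice. The groups held 2 arrays each. B6toNOD were spleen T cells of NOD recipients of B6 bone marrow, and NODtoB6 were spleen T cells of B6 recipients of NOD bone marrow. NOD.H2h4 were spleen T cells of a NOD line that carries another major histocompatibility haplotype, and B6.NODIdd1,5 were spleen T cells of a B6 line that carries the NOD diabetes intervals Idd1 and Idd5. NOD were spleen T cells of the strain that develops autoimmune diabetes spontaneously, and the kidney group was kidney cells of B6.NODIdd1,5 mice, set against B6 kidney cells. Age and sex of the mice, how the T cells were isolated, the conditioning of the marrow recipients and the share of donor cells they held are not stated in the labels. Nothing in the labels says that the arrays of a group came from separate animals, so the p-values measure only the spread between these arrays, which may be technical.

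Neutrophils mature in the bone marrow and fill their granules in stages, with lactoferrin and lipocalin-2 packed into the secondary granules of late precursors. Granulocyte colony-stimulating factor drives this maturation, and the calcium-binding S100 proteins become very abundant in the cytosol of the mature cell. Spleen holds neutrophils and, in mice, also blood-forming precursors, and T cells are not a main source of most of these transcripts. In such bulk samples, fewer cells of a type and less RNA per cell cannot be told apart. Of 18 T cell identity genes, 4 were measured (Cd247, Cd4, Bcl11b and Cd28), and a ratio to B6 T cells cannot show whether such a marker is absent, so the T cell label could not be checked by level.

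The start regions of S100a9, Lcn2 and Ltf are shown because S100a9 and Lcn2 held the highest ratios of named genes in the B6toNOD arrays and Ltf, like Lcn2, encodes a secondary granule protein. The letters in capitals are matches to binding motifs of factors that act in granulocyte maturation. The sequences, written 5′ to 3′ on the strand of the gene, are the 250 bases before the annotated start, from RefSeq, build GRCm38.p6, and all 7 genes were found in that table. Capitals mark TTNNGNAA, the core of C/EBP sites, and AGGAAG, a core of ETS sites such as those of PU.1, each searched on both strands. The S100a9 window is chr3:90695722-90695971 on the minus strand, the Lcn2 window chr2:32387740-32387989 on the minus strand and the Ltf window chr9:111019042-111019291 on the plus strand.
S100a9: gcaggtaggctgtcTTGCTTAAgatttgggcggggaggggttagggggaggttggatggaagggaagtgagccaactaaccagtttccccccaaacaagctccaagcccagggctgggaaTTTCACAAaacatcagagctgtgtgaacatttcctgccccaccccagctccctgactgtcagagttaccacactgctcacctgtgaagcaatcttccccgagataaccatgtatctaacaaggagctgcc
Lcn2: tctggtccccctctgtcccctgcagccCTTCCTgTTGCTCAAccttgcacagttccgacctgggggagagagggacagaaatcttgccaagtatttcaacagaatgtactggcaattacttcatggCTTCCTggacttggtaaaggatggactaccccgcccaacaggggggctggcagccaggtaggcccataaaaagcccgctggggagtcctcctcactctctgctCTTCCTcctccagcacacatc
Ltf: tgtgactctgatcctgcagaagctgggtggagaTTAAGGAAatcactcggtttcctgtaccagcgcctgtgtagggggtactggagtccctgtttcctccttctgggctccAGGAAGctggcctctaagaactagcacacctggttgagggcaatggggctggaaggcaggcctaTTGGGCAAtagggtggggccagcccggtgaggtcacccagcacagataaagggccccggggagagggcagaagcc
The S100a9 window held 2 matches to TTNNGNAA and 0 to AGGAAG, the Lcn2 window 1 and 3, and the Ltf window 2 and 1. In the windows of the other genes, not printed, Cd177 held 1 and 0, Csf3r 0 and 4, Hdc 0 and 1, and Ceacam1 0 and 0. The windows of Csf3r and Hdc lie inside the annotated span of the gene, and those of Cd177 and Ceacam1 overlap the 5′ edge of that span. These windows therefore do not lie wholly before the gene, unlike the printed ones. Of 32851 promoter windows of this length, 36.8% held TTNNGNAA, 29.5% held AGGAAG and 11.4% held both. These are matches of letters only, and no binding was measured.

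All values below are log2 ratios of the sample to B6 after each array was centred on its median. The deposited array medians ran between -0.88 and -0.01, so higher and lower are relative to the typical feature of an array. For the B6toNOD and NODtoB6 arrays the labels name no dyes. Channel 2 of both is labelled B6 spleen T cells, as in the strain arrays, where the sample was in Cy5 and B6 in Cy3, so the direction of both marrow transfer groups is likely the one given and every sign of theirs would turn if the channels were read the other way. The spread of the ratios also differed, with a median absolute deviation over features between 0.195 and 0.614 per array, narrowest in NOD and widest in B6toNOD. Brightness of the spots was not used here, which leaves the signal over background and the dye bias of single genes unknown.

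S100a9, which encodes a subunit of calprotectin, had the highest ratio of the 7 genes in B6toNOD T cells. It stood at 6.39 and 6.96 in B6toNOD T cells, 3.10 and 2.996 in NODtoB6 T cells and 2.32 and 2.33 in NOD.H2h4 T cells, against B6. In NOD T cells it stood at 2.13 and 2.20. In B6.NODIdd1,5 T cells it stood at -1.24 and -1.26, and in B6.NODIdd1,5 kidney at -0.55 and -0.49. The 4 groups with NOD background, NOD marrow or a NOD host lay above B6 and both congenic groups lay below it, and no ranges of the 6 groups overlapped. The SE after ± comes from 1 spread per gene shared by all 6 groups. It is not that of a group's own 2 arrays, which for S100a9 differed by 0.57 in B6toNOD and by 0.009 in NOD.H2h4. By limma, adjusted over all features tested, S100a9 was higher than in B6 by 6.68 ± 0.122 in B6toNOD (SE, n = 2, adjusted p = 6.63e-07). It was higher by 3.05 ± 0.122 in NODtoB6 (9.68e-06), by 2.33 ± 0.122 in NOD.H2h4 (4.88e-05) and by 2.16 ± 0.122 in NOD (8.73e-05). It fell by 1.25 ± 0.122 in B6.NODIdd1,5 T cells (adjusted p = 0.000381) and by 0.52 ± 0.122 in B6.NODIdd1,5 kidney (0.0148). In B6toNOD the value was 5.92 as deposited and 4.21 with arrays scaled to the same spread, and S100a9 passed under both. The kidney call was lost with arrays scaled to the same spread (-0.49, adjusted p = 0.0892), and it rested on both arrays, with an adjusted p of 0.141 without kidney replicate 1 and 0.102 without replicate 2.

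Among named genes tested, S100a9 held rank 1 of 7752 from the highest in B6toNOD and rank 1 of 8548 in NOD.H2h4, rank 7 of 8252 in NODtoB6 and rank 12 of 8600 in NOD. In B6.NODIdd1,5 T cells it held rank 364 of 7995 from the lowest. With the channels of the marrow transfer arrays read the other way, its ranks there, 1 in B6toNOD and 7 in NODtoB6, would count from the lowest, as would those of the other genes in these 2 groups.

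**Figure D1:**
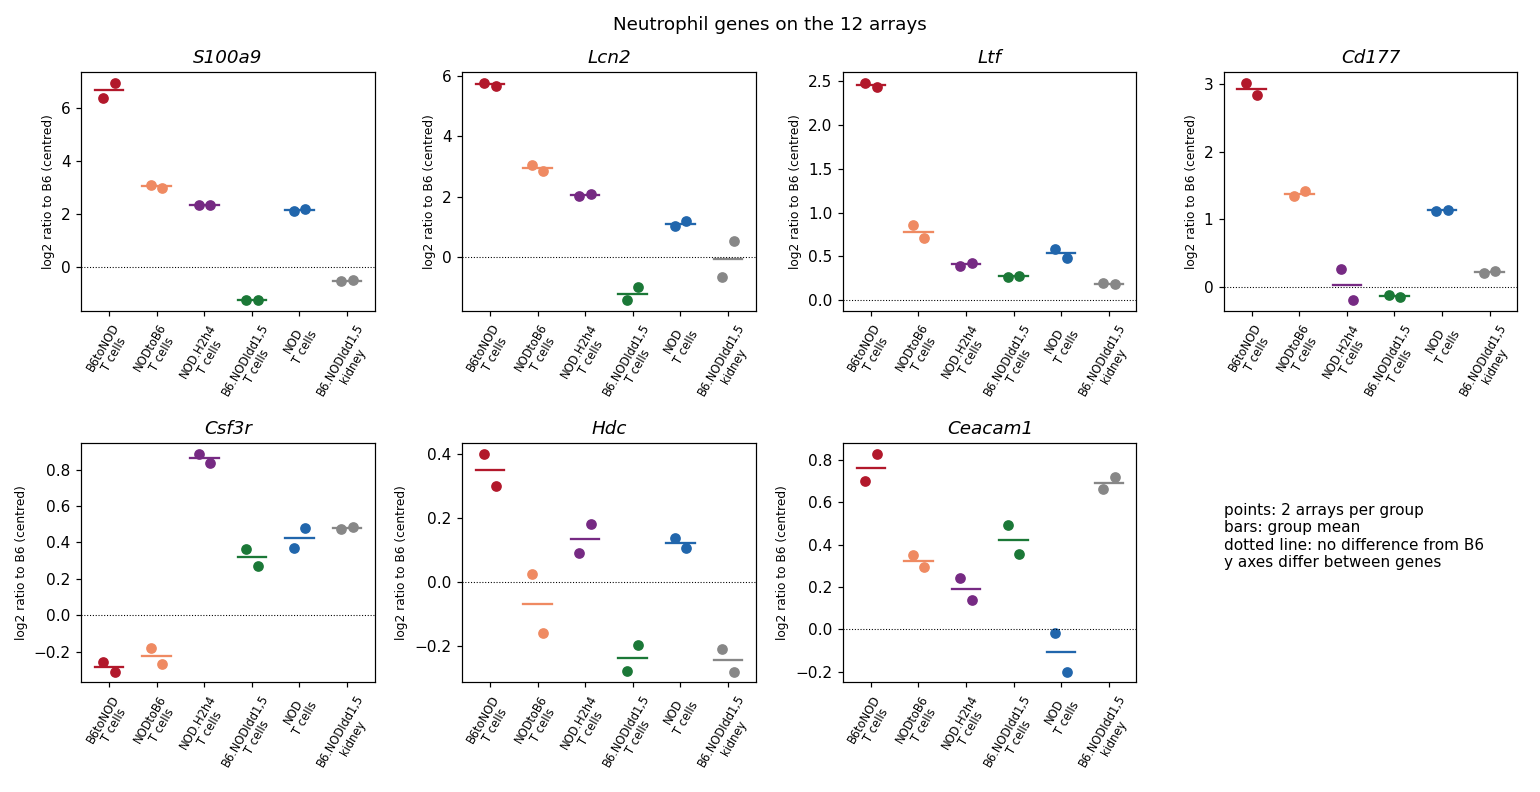
Centred log2 ratio to B6 (vertical axis) of the 7 genes, in a panel each, on the 2 arrays of each of the 6 groups; points are single arrays and short lines are group means. S100a9 stood at 6.39 and 6.96 in B6toNOD T cells and at -1.24 and -1.26 in B6.NODIdd1,5 T cells, while Csf3r was below 0 in both marrow transfer groups.

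Lcn2 encodes lipocalin-2, a secondary granule protein that withholds iron by binding bacterial siderophores and that is also made by epithelia, including injured kidney tubules. It stood at 5.77 and 5.68 in B6toNOD, 3.05 and 2.85 in NODtoB6 and 2.03 and 2.07 in NOD.H2h4, and at 1.03 and 1.18 in NOD. It stood at -1.43 and -0.99 in B6.NODIdd1,5 T cells and at -0.65 and 0.54 in B6.NODIdd1,5 kidney. The order of the groups was that of S100a9, and no neighbouring ranges overlapped. However, the kidney arrays differed by 1.20 from each other, against a median gap of 0.07 over all features of that group. Through the shared spread, the gap of 1.20 enters the Lcn2 SE of every group. Lcn2 was higher than in B6 by 5.72 ± 0.248 in B6toNOD (adjusted p = 5.19e-06), 2.95 ± 0.248 in NODtoB6 (0.000322), 2.05 ± 0.248 in NOD.H2h4 (0.00057) and 1.10 ± 0.248 in NOD (0.0293). It fell by 1.21 ± 0.248 in B6.NODIdd1,5 T cells (adjusted p = 0.00952), and the kidney value of -0.05 ± 0.248 did not pass (0.89). The NOD call was lost on the values as deposited (0.95, adjusted p = 0.128) and without either NOD array (0.145 without replicate 1 and 0.275 without replicate 2), and the call in B6.NODIdd1,5 T cells was lost without replicate 1 of that group (0.101). Lcn2 held rank 2 of 7752 in B6toNOD, rank 4 of 8548 in NOD.H2h4 and rank 11 of 8252 in NODtoB6.

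Ltf encodes lactoferrin, the iron-binding protein of secondary granules that is also secreted by glandular epithelia. As the mean of its probes it stood at 2.48 and 2.43 in B6toNOD, 0.85 and 0.71 in NODtoB6, 0.39 and 0.43 in NOD.H2h4, 0.27 and 0.28 in B6.NODIdd1,5 T cells, 0.59 and 0.49 in NOD, and 0.20 and 0.18 in B6.NODIdd1,5 kidney. It was above B6 on every array, most in the B6toNOD arrays, and no neighbouring ranges in this order of means overlapped. Ltf was higher than in B6 by 2.46 ± 0.067 in B6toNOD (adjusted p = 1.23e-06), 0.78 ± 0.067 in NODtoB6 (0.00036), 0.54 ± 0.067 in NOD (0.00458), 0.41 ± 0.067 in NOD.H2h4 (0.00234) and 0.27 ± 0.067 in B6.NODIdd1,5 T cells (0.0199). On the values as deposited the NOD.H2h4 value turned to -0.39, and neither the NOD value (0.39, adjusted p = 0.205) nor that of B6.NODIdd1,5 T cells (0.10, 0.654) passed. The NOD call was lost without NOD replicate 2 (adjusted p = 0.0503), and that of B6.NODIdd1,5 T cells without either of its arrays (0.105 and 0.109). The call in B6.NODIdd1,5 T cells was also lost with arrays scaled to the same spread (0.29, adjusted p = 0.0708).

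The 3 Ltf probes did not move by the same amount. In B6.NODIdd1,5 T cells probe 9553 passed (0.52, adjusted p = 0.00145), and probes 9316 (0.20, 0.104) and 11645 (0.14, 0.184) did not, so the call on the mean rests on 1 of 3 probes. In B6toNOD, probe 9316 was at 3.11, probe 11645 at 2.52 and probe 9553 at 1.67. In kidney, probes 9316 and 11645 were at 0.40 and 0.43, while probe 9553 was at -0.25, and all 3 passed, in opposite directions. The probes were not mapped to the genome, and which exons they lie in is unknown.

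Cd177 encodes a surface glycoprotein of neutrophils that is anchored in the membrane by a lipid. It stood at 3.02 and 2.84 in B6toNOD, 1.35 and 1.41 in NODtoB6, 0.26 and -0.20 in NOD.H2h4, -0.13 and -0.16 in B6.NODIdd1,5 T cells, 1.13 and 1.13 in NOD, and 0.20 and 0.23 in kidney. The B6toNOD, NODtoB6 and NOD arrays lay apart from all others, and the NOD.H2h4 range took in those of kidney and of B6.NODIdd1,5 T cells. Cd177 was higher than in B6 by 2.93 ± 0.109 in B6toNOD (adjusted p = 3.24e-06), 1.38 ± 0.109 in NODtoB6 (0.000236) and 1.13 ± 0.109 in NOD (0.00152), and did not pass in NOD.H2h4 (0.03 ± 0.109, 0.854), B6.NODIdd1,5 T cells (-0.14, 0.373) or kidney (0.21, 0.176). As deposited, the NOD.H2h4 value was -0.77 and passed.

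Csf3r encodes the receptor for granulocyte colony-stimulating factor, which drives neutrophil production. It stood at -0.26 and -0.31 in B6toNOD and at -0.18 and -0.27 in NODtoB6. It stood at 0.89 and 0.84 in NOD.H2h4, 0.36 and 0.27 in B6.NODIdd1,5 T cells, 0.37 and 0.48 in NOD, and 0.47 and 0.49 in kidney. Both marrow transfer groups were below B6 and the other 4 groups above it. The values were -0.28 ± 0.067 in B6toNOD (adjusted p = 0.00962) and -0.22 ± 0.067 in NODtoB6 (0.0437), and 0.86 ± 0.067 in NOD.H2h4 (0.000102), 0.42 ± 0.067 in NOD (0.00884), 0.32 ± 0.067 in T cells of B6.NODIdd1,5 (0.0104) and 0.48 ± 0.067 in kidney (0.00165), all past the threshold. As deposited, the 4 positive values fell to between 0.02 and 0.27 and no longer passed, while the 2 negative ones kept their sign. With arrays scaled to the same spread the B6toNOD value did not pass (-0.18, adjusted p = 0.0788). The B6toNOD call was also lost without B6toNOD replicate 2 (0.0542), the NOD call without NOD replicate 2 (0.127) and the call in B6.NODIdd1,5 T cells without replicate 1 of that group (0.097). The NODtoB6 call was lost in each fit that left out 1 array of any group other than B6toNOD. It was also lost with a replicate block and without both kidney arrays.

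Ceacam1 encodes an adhesion receptor with inhibitory signalling motifs, found on neutrophils, activated T cells and epithelia. It stood at 0.70 and 0.83 in B6toNOD, 0.35 and 0.30 in NODtoB6, 0.24 and 0.14 in NOD.H2h4, 0.49 and 0.35 in B6.NODIdd1,5 T cells, -0.02 and -0.20 in NOD, and 0.66 and 0.72 in kidney. The NOD arrays were the lowest and the B6toNOD and kidney ranges overlapped. Ceacam1 was higher than in B6 by 0.76 ± 0.079 in B6toNOD (adjusted p = 0.000166), 0.69 ± 0.079 in kidney (0.000753), 0.42 ± 0.079 in B6.NODIdd1,5 T cells (0.00621) and 0.32 ± 0.079 in NODtoB6 (0.0227), and did not pass in NOD.H2h4 (0.19, 0.0952) or NOD (-0.11, 0.516). As deposited, none of the 4 passed in the same direction (0.00 in B6toNOD, adjusted p = 0.99; 0.23 in kidney, 0.193; 0.25 in B6.NODIdd1,5 T cells, 0.202; 0.09 in NODtoB6, 0.659), and the NOD.H2h4 value was -0.61 and passed as lower. The NODtoB6 call was lost without either of its arrays (0.124 and 0.0914), and the call in B6.NODIdd1,5 T cells without replicate 1 of that group (0.0688).

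Hdc encodes the enzyme that makes histamine from histidine, in mast cells, basophils and myeloid precursors. As the mean of 2 probes it stood at 0.40 and 0.30 in B6toNOD, 0.03 and -0.16 in NODtoB6, 0.09 and 0.18 in NOD.H2h4, -0.28 and -0.20 in B6.NODIdd1,5 T cells, 0.14 and 0.11 in NOD, and -0.21 and -0.28 in kidney. It was the least shifted of the 7 genes in B6toNOD apart from Csf3r. The value was 0.35 ± 0.074 in B6toNOD (adjusted p = 0.00595), -0.24 ± 0.074 in B6.NODIdd1,5 T cells (0.0479) and -0.24 ± 0.074 in kidney (0.0401). It did not pass in NODtoB6 (-0.07, 0.543), NOD.H2h4 (0.14, 0.187) or NOD (0.12, 0.397).

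The Hdc probes also disagreed in other groups. Probe 9989 passed as lower in NODtoB6 (-0.24, adjusted p = 0.039) and as higher in NOD.H2h4 (0.28, 0.0141), where probe 10703 did not pass (0.09, 0.519 in NODtoB6, and 0.00, 0.982 in NOD.H2h4). Probe 9989 also passed in B6.NODIdd1,5 T cells (-0.27, 0.0215) and kidney (-0.23, 0.0393), and probe 10703 did not (-0.17, 0.203 in the T cells and -0.25, 0.0726 in kidney).

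The mean hides a disagreement between the Hdc probes in B6toNOD. Probe 9989 stood at -0.43 and -0.38 on those arrays and probe 10703 at 1.23 and 0.98, and each passed in its own direction (-0.43, adjusted p = 0.00148, and 1.08, 6.53e-05). As deposited, the mean turned to -0.41, and with arrays scaled to the same spread it did not pass (0.22, adjusted p = 0.0679). The negative calls were lost as deposited in B6.NODIdd1,5 T cells (-0.41, adjusted p = 0.0579) and with scaled arrays in kidney (-0.23, 0.0589). Both were lost with a replicate block (adjusted p = 0.0636 in B6.NODIdd1,5 T cells and 0.0542 in kidney), and without any 1 array of their own group, of NOD or of NOD.H2h4 (0.0563 to 0.297).

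**Figure D2:**
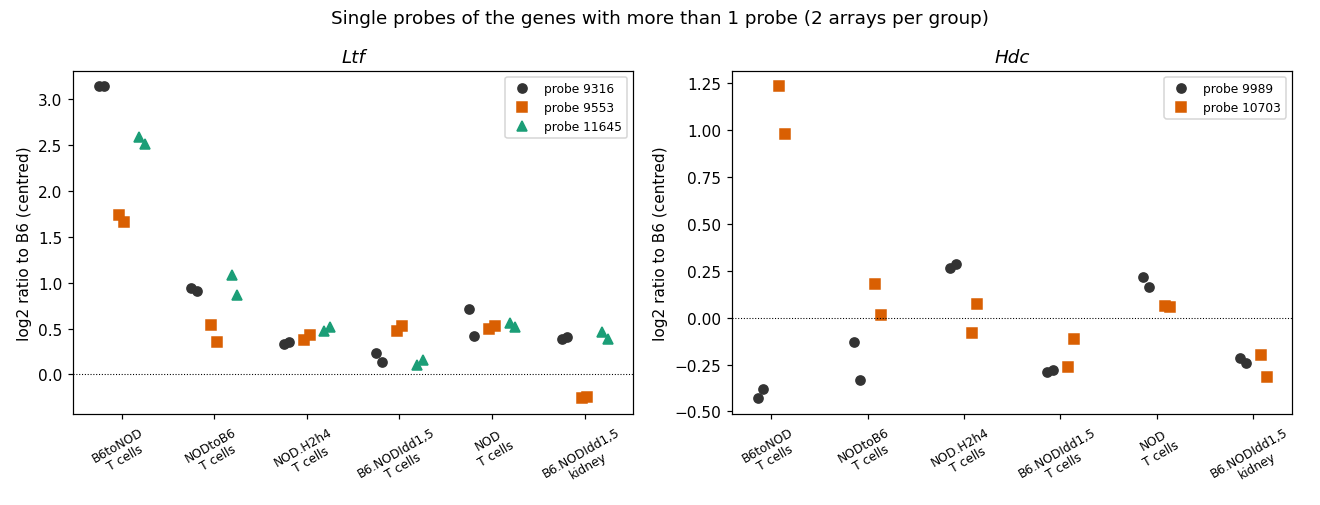
Centred log2 ratio to B6 (vertical axis) of the 3 Ltf probes and the 2 Hdc probes on the arrays of each group; points are single arrays. In B6toNOD T cells the Hdc probes lay on opposite sides of 0, at -0.43 and -0.38 for probe 9989 and at 1.23 and 0.98 for probe 10703.

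Read by group, 7 of 7 genes passed in B6toNOD against B6, 6 higher and 1 lower, where 51.4% of all features passed (28.5% higher, 22.9% lower). In NODtoB6, 6 of 7 passed, 5 higher and 1 lower, against 26.8% of all features (13.8% higher, 13.1% lower). In NOD.H2h4, 4 of 7 passed, all higher, against 39.5% of all features (24.1% higher, 15.4% lower). In B6.NODIdd1,5 T cells, 6 of 7 passed, 3 higher and 3 lower, against 30.3% (14.4% higher, 15.9% lower). In NOD, 5 of 7 passed, all higher, against 12.2% (9.79% higher, 2.46% lower). In kidney, 4 of 7 passed, 2 higher and 2 lower, against 33.5% (22.4% higher, 11.1% lower). The counts of B6.NODIdd1,5 T cells and of NOD fell when 1 array of the group was left out. The share of all features that passed fell too. Such a fit leaves 1 array in the group.

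**Figure D3:**
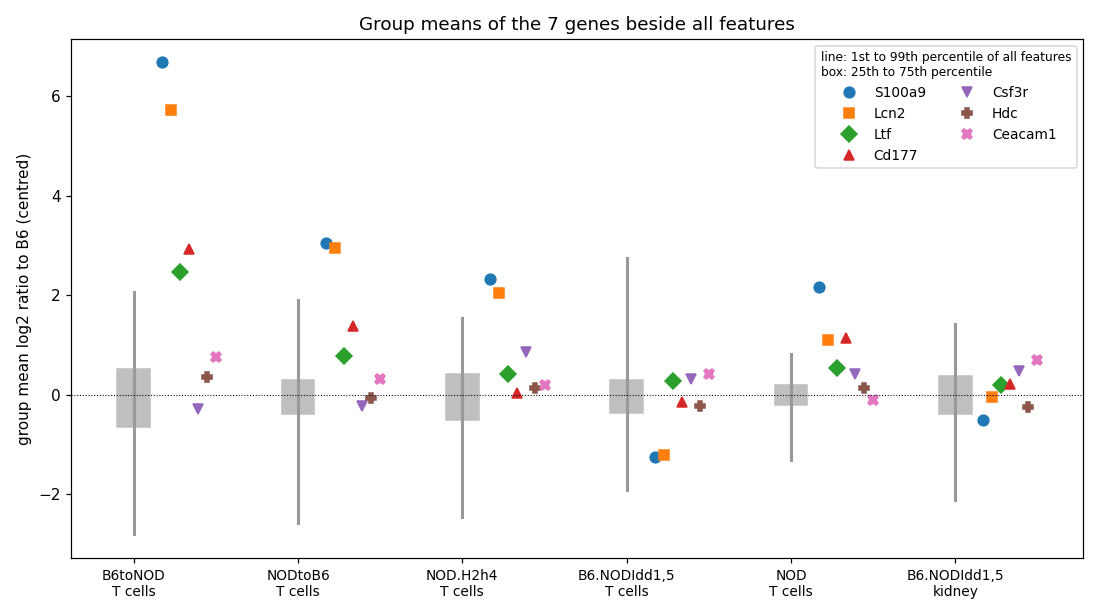
Centred log2 ratio to B6 (vertical axis) of the 7 genes in each group, as group means of 2 arrays, beside the spread of all features tested in that group (box from the lower to the upper quartile, line without the lowest and highest 1%). S100a9 and Lcn2 lay far above the range of most features in B6toNOD T cells, where the top 1% of all features began at 2.05.

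The differences between groups set the same genes side by side in strains and marrow recipients. No group received marrow of its own strain, so donor, host and the transfer itself cannot be told apart. The differences share arrays, those of NOD among them, so they are not independent of each other or of the values above. Every ratio is also to a B6 channel, of kidney cells for the kidney group and of spleen T cells otherwise. B6toNOD against NOD compares NOD hosts with B6 marrow to intact NOD mice. S100a9 was higher by 4.51 ± 0.173 (adjusted p = 1.73e-05), Lcn2 by 4.62 ± 0.351 (0.000121), Ltf by 1.92 ± 0.095 (3.56e-05), Cd177 by 1.80 ± 0.154 (0.000182) and Ceacam1 by 0.87 ± 0.111 (0.000879). Csf3r fell by 0.71 ± 0.094 (adjusted p = 0.00107), and the mean of the Hdc probes was at 0.23 (0.136), which made 5 higher and 1 lower of 7, against 36.0% of all features (19.8% higher, 16.2% lower). The Hdc probes passed in opposite directions, probe 9989 at -0.62 (adjusted p = 0.00216) and probe 10703 at 1.02 (0.000845). As deposited, Ceacam1 did not pass (0.26, 0.263). With arrays scaled to the same spread, S100a9 no longer passed (0.41, adjusted p = 0.311) and Cd177 turned to -0.14. The median absolute deviation over features was 0.614 and 0.597 on the B6toNOD arrays, against 0.195 and 0.243 on the NOD arrays. Its part in these differences was not tested further.

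B6toNOD against NODtoB6 compares both directions of marrow transfer. S100a9 was higher by 3.63 ± 0.173 (adjusted p = 4.82e-05), Lcn2 by 2.77 ± 0.351 (0.000868), Ltf by 1.68 ± 0.095 (6.98e-05), Cd177 by 1.55 ± 0.154 (0.000314), Hdc by 0.42 ± 0.105 (0.0179) and Ceacam1 by 0.44 ± 0.111 (0.0182), and Csf3r was at -0.06 (0.67). These were 6 of 7 genes, all higher, against 36.0% of all features (22.2% higher, 13.8% lower). The Hdc call came from probe 10703 (0.99, adjusted p = 0.00098), and probe 9989 was at -0.19 (0.166). With arrays scaled to the same spread, S100a9 (0.90, adjusted p = 0.0486) and Ltf (0.70, 0.0152) still passed, and Lcn2 (0.40, adjusted p = 0.474), Cd177 (0.35, 0.191), Hdc (0.29, 0.103) and Ceacam1 (0.13, 0.505) did not. As deposited, Hdc (-0.11) and Ceacam1 (-0.09) turned, and Csf3r passed as lower (-0.59, 0.0243). Hdc was lost without NODtoB6 replicate 2 (0.0797) or B6toNOD replicate 1 (0.0535), and Ceacam1 without replicate 2 of either group (0.0697 for NODtoB6 and 0.0567 for B6toNOD).

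NODtoB6 against NOD separated S100a9, which was higher by 0.88 ± 0.173 (adjusted p = 0.0138), Lcn2, higher by 1.85 ± 0.351 (0.0123), Ceacam1, higher by 0.43 ± 0.111 (0.0351), and Csf3r, which fell by 0.65 ± 0.094 (0.00551). Ltf, Cd177 and Hdc did not pass, so 4 of 7 passed, 3 higher and 1 lower, against 19.1% of all features (7.52% higher, 11.6% lower). S100a9 turned to -0.50 with arrays scaled to the same spread, and neither S100a9 (0.0602 and 0.0699) nor Lcn2 (0.0569 and 0.0667) passed without NOD replicate 1 or without NOD replicate 2. Hdc probe 9989 passed as lower (-0.43, adjusted p = 0.0219), and probe 10703 was at 0.03 (0.906). Ceacam1 was lost as deposited (0.35, adjusted p = 0.263), and without either NODtoB6 array (0.0963 and 0.0774), NOD replicate 2 (0.181), and any 1 NOD.H2h4 or kidney array (0.059 and 0.0676). Without NOD replicate 2, fewer of the 7 genes passed, and so did a smaller share of all features.

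B6.NODIdd1,5 T cells against NOD T cells compares a congenic B6 line with the NOD strain. S100a9 fell by 3.41 ± 0.173 (adjusted p = 3.13e-05), Lcn2 fell by 2.31 ± 0.351 (0.00391), Cd177 by 1.27 ± 0.154 (0.0015) and Hdc by 0.36 ± 0.105 (0.0439). Ceacam1 was higher by 0.53 ± 0.111 (0.0136), and Ltf (-0.27, 0.0833) and Csf3r (-0.11, 0.469) did not pass. These were 5 of 7 genes, 1 higher and 4 lower, against 24.3% of all features (9.41% higher, 14.9% lower). As deposited, neither Hdc (-0.39, adjusted p = 0.221) nor Ceacam1 (0.51, 0.103) passed, and of the Hdc probes 9989 passed (-0.46, 0.0137) and 10703 did not (-0.23, 0.243). Ltf (-0.67, 0.0113) and Csf3r (-0.40, 0.014) passed as lower with arrays scaled to the same spread. Hdc was lost without both kidney arrays (adjusted p = 0.0786) and without any 1 array of the groups compared (0.0799 to 0.147). Ceacam1 was lost without NOD replicate 2 (0.0812) or B6.NODIdd1,5 T cell replicate 1 (0.0587). S100a9 held rank 17 of 7906 from the lowest.

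NOD.H2h4 against NOD, which differ in the major histocompatibility haplotype, separated Cd177, which fell by 1.10 ± 0.154 (adjusted p = 0.00489), and Csf3r, higher by 0.44 ± 0.094 (0.0193). These were 2 of 7 genes, 1 higher and 1 lower, against 18.2% of all features (6.22% lower, the rest higher). S100a9 (0.16 ± 0.173, 0.593), Ltf (-0.13, 0.429) and Hdc (0.01, 0.958) did not pass, nor did Lcn2 (0.95 ± 0.351, 0.109) and Ceacam1 (0.30, 0.111). S100a9 turned to -1.90 and Csf3r to -0.03 with arrays scaled to the same spread, Csf3r was at -0.21 as deposited, and the Csf3r call was lost without any 1 of the 4 arrays (0.051 to 0.104). Lcn2 passed without both kidney arrays (adjusted p = 0.0227). Ltf passed as lower as deposited (-0.78, adjusted p = 0.0203) and with scaled arrays (-0.62, 0.0362).

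B6.NODIdd1,5 T cells against B6.NODIdd1,5 kidney, each relative to its own B6 tissue, separated S100a9 alone by gene mean. Of the Ltf probes, 9553 was higher in T cells (0.76, adjusted p = 0.00189), and 9316 (-0.20, 0.282) and 11645 (-0.29, 0.0967) did not pass. S100a9 was lower in T cells by 0.73 ± 0.173 on the log2 scale (-0.73, adjusted p = 0.0231). It was 1 of 7 genes, against 21.0% of all features (6.9% higher, 14.1% lower). That call was lost without any 1 of the 4 arrays (adjusted p from 0.0667 to 0.118), as deposited (-0.45, 0.144) and with arrays scaled to the same spread (-0.84, 0.0677). Lcn2 was at -1.15 ± 0.351 (0.056), and passed without kidney replicate 1 (-1.75, 0.00687).

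**Figure D4:**
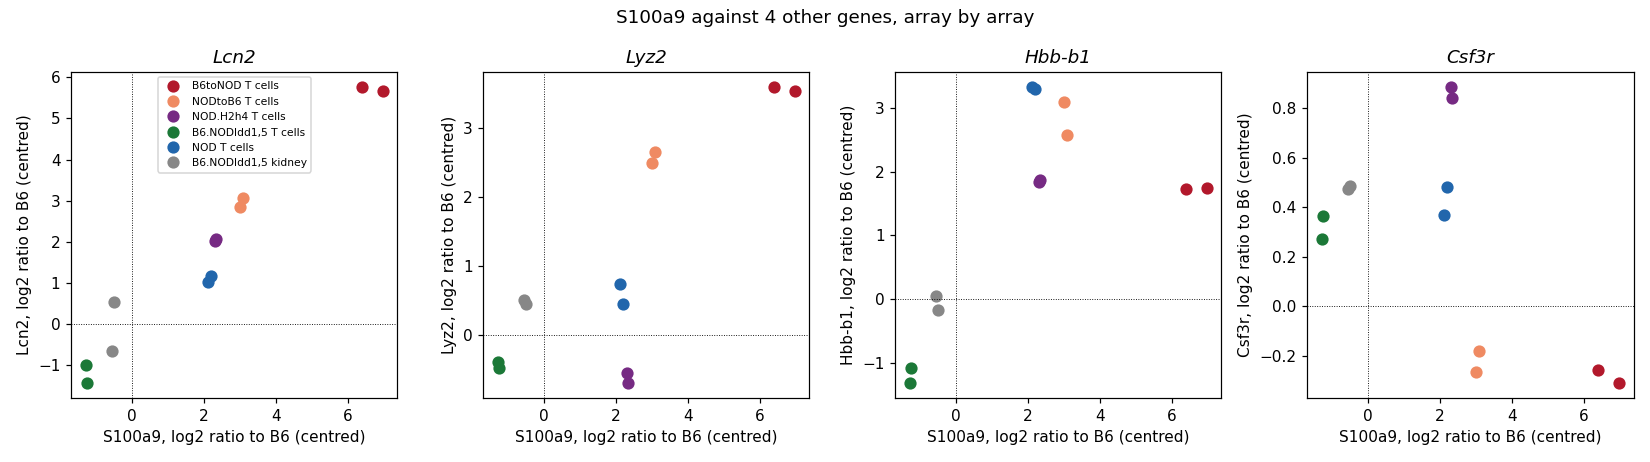
Centred log2 ratio to B6 of S100a9 (horizontal axis) against that of Lcn2, Lyz2, Hbb-b1 and Csf3r (vertical axes, a panel each) on the 12 arrays; points are single arrays, coloured by group. The B6toNOD arrays lie apart at 6.39 and 6.96, Csf3r is below 0 on both them and the NODtoB6 arrays, and Hbb-b1 is highest in NOD, at 3.33 and 3.29.

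Within the set, S100a9 and Lcn2 followed each other over the 12 arrays with a Pearson r of 0.98, and of 0.94 over the 10 arrays without B6toNOD. The r of S100a9 was 0.90 with Ltf, 0.90 with Cd177, 0.88 with Hdc, 0.15 with Ceacam1 and -0.57 with Csf3r. Without B6toNOD it was 0.85 with Ltf, 0.71 with Cd177, 0.77 with Hdc, -0.63 with Ceacam1 and -0.18 with Csf3r, so the sign for Ceacam1 turned. These are descriptions over arrays that each hold a B6 channel, of spleen T cells or kidney cells, and that share a group in pairs. Among 6909 other named genes measured on all arrays, the patterns most like that of S100a9 were Vdac3, a mitochondrial channel (r = 0.98), Srgn, the core protein of granule proteoglycan (0.98), Nusap1, a spindle protein (0.97), Chmp2a, a membrane-remodelling protein (0.97), and Rac2, a blood-cell GTPase (0.97). Without B6toNOD these were 0.96, 0.97, 0.93, 0.95 and 0.92. The genes most like the mean of the other 6 were Pygl, a glycogen phosphorylase, Pycard, the inflammasome adaptor, Rpl28, a ribosomal protein, App and Arpc2, an actin-branching subunit, with r between 0.97 and 0.98. Without B6toNOD their r was 0.93, 0.90, 0.88, 0.96 and 0.87.

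Other neutrophil genes were read from a list of 57, of which 18 were measured. In B6toNOD, 12 of 18 rose and 1 fell, where 28.5% of all features were higher and 22.9% lower, with a median of 1.45, against -0.04 over all features. Anxa1, an annexin abundant in neutrophils, was at 4.79 ± 0.179 (adjusted p = 3.24e-06), Alox5ap, the activator of leukotriene synthesis, at 3.62 (6.63e-07), Lyz2, the lysozyme of neutrophils and macrophages, at 3.57 (1e-06) and Stfa1, a cysteine protease inhibitor, at 2.50 (7.45e-05). In NODtoB6, 12 of 17 rose and 0 fell, against 13.8% and 13.1% of all features (median 0.84, against -0.01 over all features), led by Anxa1 at 2.80, Lyz2 at 2.57, Alox5ap at 2.25 and Slpi, a neutrophil elastase inhibitor, at 2.20.

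In NOD.H2h4, 0 of 18 rose and 4 fell, against 24.1% of all features higher and 15.4% lower (median -0.06). The 4 were Anxa1 (-1.15), Clec4d (-1.11), Fcgr3 (-0.81) and Lyz2 (-0.63), whereas S100a9 and Lcn2 were higher there by 2.33 and 2.05. In NOD, 3 rose and 1 fell of 18, against 9.79% and 2.46% of all features (median 0.20), with Anxa1 at 1.25, Lyz2 at 0.59 and Alox5ap at 0.57 higher and Padi4, which citrullinates histones, at -0.62. In B6.NODIdd1,5 T cells, 1 rose and 6 fell of 16, against 14.4% and 15.9% (median -0.18), with Tnfaip2 at -1.34, Stfa1 at -1.27 and Slpi at -0.81 lower and Clec4e, a receptor for microbial glycolipids, higher at 1.51. In kidney, 6 rose and 2 fell of 18, against 22.4% and 11.1% of all features (median -0.21), with Mmp9, a matrix protease of neutrophil granules, at 1.46, Clec4e at 0.80, Cxcr4, a chemokine receptor that holds neutrophils in the marrow, at 0.57 and Slpi at -1.15. Adam8, 1 of the 6 (0.37), turned to -0.0912 as deposited.

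Between the marrow transfer groups, B6toNOD minus NODtoB6, 9 of 17 rose and 2 fell, against 22.2% and 13.8% of all features. Slpi (-3.66) and Itgb2, the common beta chain of leukocyte integrins (-1.81), were lower, while Selplg, the selectin ligand, was higher by 3.45 and Anxa1 by 1.99. With arrays scaled to the same spread, a check on listed genes added after the values were seen, Anxa1 was at -0.02 there, Alox5ap at -0.16 and Lyz2 at -0.54, against 1.99, 1.37 and 0.999 as centred. B6toNOD minus NOD gave 11 higher and 1 lower of 18, against 19.8% and 16.2% of all features, led by Anxa1 at 3.54, Stfa1 at 3.12, Alox5ap at 3.04 and Lyz2 at 2.98. With scaled arrays these were 0.83, 2.62, 1.26 and 1.18. NODtoB6 minus NOD gave 8 higher and 0 lower of 17, against 7.52% and 11.6%, led by Slpi at 2.05, Lyz2 at 1.98, Alox5ap at 1.68 and Anxa1 at 1.55, and Anxa1 was at 0.85 with scaled arrays.

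NOD.H2h4 minus NOD gave 1 higher and 5 lower of 18, where 18.2% of all features passed and 6.22% were lower, with Anxa1 at -2.40, Clec4d at -1.31, Lyz2 at -1.22 and Stfa1 at 1.09. B6.NODIdd1,5 T cells minus NOD gave 2 higher and 5 lower of 16, against 9.41% and 14.9% of all features, with Anxa1 at -1.96, Tnfaip2 at -1.63, Lyz2 at -1.03 and Clec4e at 1.15 (Padi4 was the other one higher). B6.NODIdd1,5 T cells minus kidney gave 0 higher and 3 lower of 16, against 6.9% and 14.1%, Lyz2 (-0.91), Cyba, a subunit of the oxidase that makes superoxide (-0.49), and Adam8 (-0.44).

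**Figure D5:**
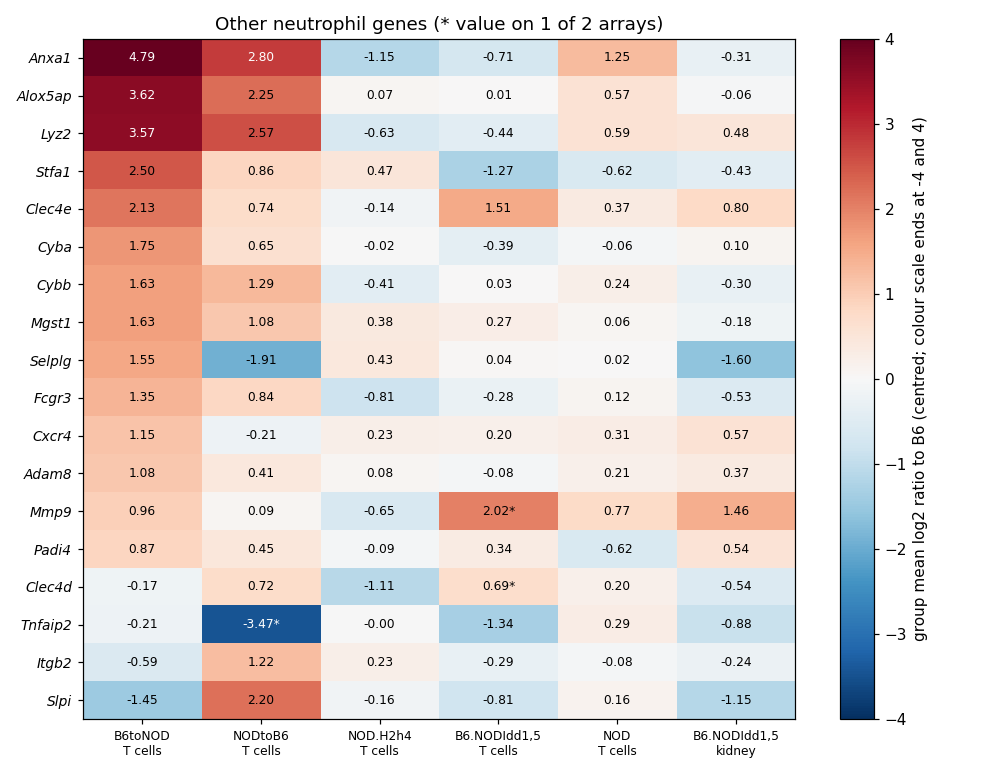
Group mean centred log2 ratio to B6 of the 18 measured genes of the other neutrophil list (rows) in the 6 groups (columns), printed in each cell and shown as colour; a star marks a value from 1 of 2 arrays. The B6toNOD and NODtoB6 T cells have medians of 1.45 and 0.84, and the NOD.H2h4 T cells have a median of -0.06.

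Some markers of other cells passed in some of the same groups, and their part in the values above was not tested. The counts of each list below stand beside the share of all features that passed in either direction. This share was 51.4% for B6toNOD, 39.5% for NOD.H2h4, 33.5% for kidney and 26.8% for NODtoB6. It was 30.3% for the T cells of B6.NODIdd1,5 and 12.2% for NOD. Whether any of these short lists passed more often than features at large was not tested. Erythroid markers, 7 of 12 measured, gave 3 higher and 1 lower of 6 in B6toNOD, 5 higher and 0 lower of 7 in NODtoB6, 3 higher and 1 lower of 6 in NOD.H2h4, 1 higher and 6 lower of 7 in B6.NODIdd1,5 T cells, and 3 higher and 1 lower of 7 in NOD. Hbb-b1, adult beta globin, was at 1.73 and 1.74 in B6toNOD, 2.58 and 3.10 in NODtoB6, 1.83 and 1.87 in NOD.H2h4, -1.09 and -1.32 in B6.NODIdd1,5 T cells, 3.33 and 3.29 in NOD and 0.05 and -0.17 in kidney. It was highest in NOD, where S100a9 was not. As deposited, Hbb-bh1 and C1qb in B6toNOD and Fcgr1, Alas2 and Gata1 in NOD.H2h4 turned negative.

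Monocyte and macrophage markers, 5 of 17 measured, gave 2 higher and 1 lower of 3 in B6toNOD, with Fcgr1, a high-affinity antibody receptor of macrophages, at 1.19 and 1.02. They gave 0 calls of 5 in NODtoB6, 2 higher and 1 lower of 5 in NOD.H2h4, 0 of 4 in B6.NODIdd1,5 T cells, 0 of 5 in NOD, and 2 higher of 4 in kidney. Those in NOD.H2h4 were Cd163, a macrophage scavenger receptor (1.79, adjusted p = 0.00026), Fcgr1 (0.36, 0.00799) and C1qc (-0.75, 0.0255), and those in kidney were Fcgr1 (0.48, 0.00266) and C1qb (0.33). Mast cell and basophil markers, 4 of 14 measured, gave 1 lower of 3 in B6toNOD, Mcpt4, at -2.81 and -2.82. They gave 0 calls in NODtoB6 and NOD, 1 lower of 4 in NOD.H2h4 (Mcpt4, -1.61), 2 lower of 4 in B6.NODIdd1,5 T cells (Kit, -0.99, and Cma1, -0.72) and 1 lower of 4 in kidney (Kit, -1.07). B cell markers, 2 of 12 measured, gave 1 lower of 2 in B6toNOD, Cd79b, at -0.73 and -3.36, which differ widely, and 0 calls in the other groups. No eosinophil marker of 8 was measured.

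T cell identity genes, 4 of 18 measured, gave 0 calls of 1 in B6toNOD, 1 higher of 4 in NODtoB6, 1 higher and 1 lower of 4 in NOD.H2h4, 2 lower of 2 in B6.NODIdd1,5 T cells, 1 higher of 4 in NOD and 1 lower of 4 in kidney. Cd28, a T cell costimulatory receptor, was at 0.12 and 0.27 in B6toNOD, 0.57 and 0.66 in NODtoB6, -0.53 and -0.64 in NOD.H2h4, -1.46 and -1.31 in B6.NODIdd1,5 T cells, 0.76 and 0.42 in NOD, and -1.11 and -1.24 in kidney. It passed in all groups but B6toNOD. The other calls were Bcl11b, a T cell transcription factor, higher in NOD.H2h4 (0.81, adjusted p = 0.00593), and Cd247, the T cell receptor zeta chain, lower in B6.NODIdd1,5 T cells (-1.23, 0.0315).

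Kidney segment markers, 4 of 12 measured, gave 2 higher and 0 lower of 4 in kidney, where Ceacam1, also made by epithelia, was higher. These were Umod, uromodulin of the thick ascending limb (1.01, adjusted p = 0.00191), and Lrp2, megalin of the proximal tubule (0.88, 0.00158). In spleen T cells the list gave 2 lower of 3 in B6toNOD, 0 of 3 in NODtoB6, 3 lower of 4 in NOD.H2h4, 1 higher and 1 lower of 4 in B6.NODIdd1,5 and 0 of 3 in NOD. In kidney the erythroid list gave 1 higher and 1 lower of 7.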

How the data were processed

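RNA of 2 channels per array was measured on 12 arrays in 6 groups of 2. The deposited values are log2 ratios of sample to B6, per the labels of the channels, with the scanner files not analysed here; no header or label names the image analysis or the normalisation. The authors' values of 146 cells, the log2 of a ratio of 100000, were treated as missing.

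Symbols of single-gene probes were updated by gene identifier (12850 of 13033 found), probes of a gene were averaged, and unnamed probes were kept, giving 16411 features. Each array was centred on its median, and limma 3.58.1 in R 4.3.3 fitted the 6 group means together, with Benjamini-Hochberg adjustment over all features tested and a threshold of 0.05. Against B6, a group's mean ratio was tested against 0, so B6 variation enters only through the ratios and has no estimate of its own. Between 18837 and 20558 probes per array had a value, and precision is limited by 2 arrays per group. The fit was tested on simulated data.

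All 7 genes are named in every comparison; of the neutrophil, S100 and CEACAM lists, up to 4 with the largest value past the threshold; and the 5 genes most like S100a9 or the mean of the rest by correlation. The genes and lists were chosen with earlier results of these data known. The values of the deposited table, its scaling and centring by the submitters are not stated. Alternatives included other scaling, filters, a replicate block, leaving out arrays and turned signs.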

Additional observations from a re-analysis of the deposited data

Results flagged for a closer look

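S100a9 passed between tissues of the same congenic line, as 1 of 7 genes, where 21.0% of all features passed. Its ratio to B6 was lower in B6.NODIdd1,5 T cells than in B6.NODIdd1,5 kidney by 0.73 on the log2 scale (-0.73, adjusted p = 0.0231 by limma), from arrays at -1.24 and -1.26 in T cells and at -0.55 and -0.49 in kidney. The call was lost without any 1 of the 4 arrays, with arrays scaled to the same spread (adjusted p = 0.0677), with a running median along the probe order subtracted (0.0727) and on the values as deposited (0.144). With scaled arrays and with the running median subtracted, 1 gene of the set other than S100a9 passed as lower, against 19.9% and 21.6% of all features. T cells and kidney were each set against their own B6 tissue.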

How the results depend on the processing

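Leaving out 1 array at a time gave 6 to 7 of the 7 genes past the threshold in B6toNOD against B6, 4 to 6 in NODtoB6, 4 in NOD.H2h4, 1 to 6 in B6.NODIdd1,5 T cells, 2 to 5 in NOD and 2 to 4 in kidney. It gave 6 in B6toNOD against NOD, 4 to 6 in B6toNOD against NODtoB6, 1 to 4 in NODtoB6 against NOD, 3 to 5 in B6.NODIdd1,5 T cells against NOD, 1 to 3 in NOD.H2h4 against NOD and 0 to 1 in B6.NODIdd1,5 T cells against kidney. The share of all features that passed also changed with the array left out. As deposited, the counts were 2 in NOD, where 1.2% of all features passed, 2 in kidney (32.4%) and 2 in B6.NODIdd1,5 T cells (25.6%). The as-deposited counts were 3 in B6.NODIdd1,5 T cells against NOD (13.5%) and 0 in B6.NODIdd1,5 T cells against kidney (9.73%). With arrays scaled to the same spread the counts were 2 in kidney (31.1% of all features) and 2 in B6toNOD against NODtoB6 (22.9%). The mean of the other groups as baseline gave 2 in NOD (17.8% of all features). It gave 7 in kidney, where 1699 of 12451 features were higher and 1043 lower. With the replicate block the counts were 7 in B6toNOD (50.5% of all features) and 3 in kidney (32.1%). They were 5 each in NODtoB6 (25.3%), NOD (10.5%) and B6.NODIdd1,5 T cells (28.8%). The replicate numbers do not pair the arrays (correlations between -0.036 and 0.022).

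Signs turned as deposited for Ltf (-0.39), Cd177 (-0.77), Hdc (-0.66) and Ceacam1 (-0.61) in NOD.H2h4, Hdc in B6toNOD (-0.41), Csf3r (-0.21) and Hdc (-0.64) in NOD.H2h4 against NOD, and Hdc (-0.11) and Ceacam1 (-0.088) in B6toNOD against NODtoB6. With scaled arrays they turned for S100a9 (-1.90) and Csf3r (-0.0285) in NOD.H2h4 against NOD, S100a9 in NODtoB6 against NOD (-0.50) and Cd177 in B6toNOD against NOD (-0.14). Against the mean of the other groups, which sets another baseline, they turned for Lcn2 (-0.79) and Ltf (-0.29) in NOD, Ltf (-0.44) and Cd177 (-1.07) in NOD.H2h4, Ltf in B6.NODIdd1,5 T cells (-0.60), Ltf (-0.70) and Cd177 (-0.85) in kidney, and Ceacam1 in NODtoB6 (-0.0692). The deposited values differ from the centred ones only by the array median, -0.86 and -0.74 in NOD.H2h4 and -0.64 and -0.88 in B6toNOD. The scaled values are the centred ones times 1 factor per array. Turns in these 2 settings therefore follow from the shift or the factor of the arrays. Why medians and spreads differed between arrays was not tested.

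With the marrow transfer arrays turned, B6toNOD gave -6.68 for S100a9, -5.72 for Lcn2, -2.46 for Ltf, -2.93 for Cd177, 0.28 for Csf3r, -0.35 for Hdc and -0.76 for Ceacam1, and NODtoB6 gave -3.05, -2.95, -0.78, -1.38 and 0.22 for S100a9 to Csf3r in that order and -0.32 for Ceacam1. Against NOD, B6toNOD gave -8.84, -6.82, -3.00 and -4.06 for S100a9, Lcn2, Ltf and Cd177, -0.48 for Hdc and -0.65 for Ceacam1, and NODtoB6 gave -5.21, -4.05, -1.32 and -2.51 for the same 4 genes and -0.21 for Ceacam1. B6toNOD against NODtoB6 gave -3.63, -2.77, -1.68 and -1.55 for those 4, -0.42 for Hdc and -0.44 for Ceacam1.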

Other observations

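Of the S100 family, 3 of 12 genes were measured. S100a6, a calcium-binding protein that many cell types make, was higher than in B6 by 3.38 ± 0.080 in B6toNOD T cells (limma adjusted p = 9.76e-07), 1.85 in NODtoB6 (1.24e-05), 0.64 in NOD.H2h4 (0.000639), 0.64 in NOD (0.00446) and 0.28 in B6.NODIdd1,5 kidney (0.0293), and was at -0.01 in B6.NODIdd1,5 T cells (0.948). As deposited it turned to -0.16 in NOD.H2h4 and -0.17 in kidney. Between groups S100a6 was higher by 2.74 in B6toNOD and by 1.21 in NODtoB6 than in NOD, higher by 1.53 in B6toNOD than in NODtoB6 and lower in B6.NODIdd1,5 T cells than in NOD (-0.65), and it did not pass in the other 2 differences. S100a13 and S100g passed in none of the 12 comparisons. Of the CEACAM and PSG family, 3 of 15 genes were measured. Ceacam9 was lower in kidney (-1.59, adjusted p = 0.00551) and NODtoB6 (-1.37, 0.0145), and Psg22 was lower in B6toNOD (-0.61, 0.0125). Ceacam9 was also higher in B6.NODIdd1,5 T cells than in kidney (1.51, 0.0374), and no other comparison gave a call in this family. These probes can bind RNA of close relatives, and the probes were not mapped.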
